A study of Mus musculus with 106 samples.

Results

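The phase II conjugation enzymes were followed here through the glutathione S-transferases (Gst), the UDP-glucuronosyltransferases (Ugt) and the sulfotransferases (Sult) of mice housed below, at and above room temperature. Members were taken by gene symbol alone: a Gst of class a, m, p, t, k or o, a Ugt of family 1 or 2 and subfamily a or b, or any numbered Sult. This gave 60 genes, 21 Gst, 18 Ugt and 21 Sult, with 59 of them among the 21647 rows of one count table and 59 among the 23393 rows of the other. Gstp3 was listed under that symbol only in the first table and Ugt1a6a only in the second. The mice were male wild-type C57BL/6J, 8 weeks old at the start, fed standard chow. Cold-exposed mice spent 5 days at 18 °C, 5 days at 14 °C and then 2 weeks at 10 °C, warm-exposed mice spent 4 weeks at 34 °C, and each exposure had its controls at 22 °C. The cold-exposed mice and their controls came from Janvier and are labelled as 11 weeks old (12 weeks for quadriceps), while the warm-exposed mice and their controls came from Charles River and are labelled as 12 weeks old. RNA was sequenced from liver, ileum, interscapular brown fat (iBAT), inguinal subcutaneous fat (ingSAT), perigonadal visceral fat (pgVAT), spleen, brain, hypothalamus and quadriceps, with 3 libraries per group, most of them pools of 2 mice, and some of the iBAT libraries of the warm experiment from single mice. Quadriceps had 6 libraries at 22 °C, in 2 sets of 3 by column prefix. The prefix QM was shared with the cold quadriceps libraries and QC with the warm ones. As the sample labels do not assign the controls to an exposure, all 6 served as controls for both. Each quadriceps comparison may therefore include controls from the other experiment and supplier.

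Conjugation makes lipophilic compounds water soluble, so that they can leave in bile or urine. Gst enzymes add glutathione to electrophiles such as lipid peroxidation products, Ugt enzymes of the endoplasmic reticulum add glucuronic acid from UDP-glucuronic acid to bilirubin, steroids and drugs, and cytosolic Sult enzymes move sulfate from the donor PAPS to phenols, hormones and bile acids. Liver is the main organ for all of these reactions, and the small intestine conjugates compounds taken up from food before they reach the portal blood. Transcription of these genes is known to respond to the nuclear receptors CAR and PXR, to the aryl hydrocarbon receptor and to the oxidative stress factor NRF2.

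The deposited values were raw read counts per gene, with 4262403 to 25964912 counts per library in the first table and 29545458 to 62880248 in the second. The first table held the cold experiment apart from quadriceps, and the second held the warm experiment and all quadriceps libraries, so levels were compared only within a table. Levels are given as CPM, a gene's reads over the TMM-scaled library total, when 1 gene is compared between groups, and as CPM per kilobase of exon (RPKM) when genes are compared with each other. Each of the 14 comparisons was fitted across all genes with edgeR's quasi-likelihood test, and a gene was called higher or lower when its unadjusted p-value was at most 0.05 and its fold change exceeded 1.5. Adjusted p-values are Benjamini-Hochberg values over all genes of the comparison. They measure the spread between these libraries, and in bulk tissue fewer cells of a type cannot be told apart from less RNA per cell. Members of the Ugt1a group share their last exons, so that 17.3% to 49.7% of their exon bases were their own in the GENCODE annotation (GRCm38), and the close paralogs Gsta1 and Gsta2, Gstp1 and Gstp2, the Ugt2b genes and the Sult2a genes are also hard to separate. The split of reads among them is therefore uncertain.

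Several libraries stood apart from their group. In the brain, replicate 2 at 22 °C of the cold experiment held 82410 CPM of 10 hepatocyte markers, against 735.6 to 1103 CPM in the other 5 brain libraries. Ileum replicate 2 at 34 °C held 1594 CPM of Lct, the intestinal lactase, against 0.404 to 61.8 CPM in the other 5 libraries, and only 149.6 CPM of Slc10a2, the ileal bile acid transporter, against 360 to 572.1 CPM. Epididymis markers summed to 28770 and 32240 CPM in pgVAT replicates 1 and 3 at 10 °C, to 5.84 CPM in replicate 2 and to 968.2 to 2896 CPM at 22 °C. They also reached 201.9 CPM in quadriceps replicate 1 at 10 °C, where the other 8 libraries held at most 0.125 CPM. Liver libraries held 83060 to 160500 CPM of hepatocyte markers and ileum libraries 11230 to 33570 CPM of enterocyte markers, and the enterocyte sum was at most 280.8 CPM in liver.

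At 22 °C, the conjugation genes took 0.869% to 1.01% of all counts in liver in the cold experiment and 1.04% to 1.07% in the warm experiment, against 0.158% to 0.164% and 0.192% to 0.216% in ileum. In the other tissues the share was between 0.0209% in a spleen library and 0.148% in a pgVAT library, apart from the brain library with liver transcripts, which reached 0.664%. Liver had 37 members at 1 RPKM or more in the cold experiment and 12 at 100 RPKM or more, whereas ileum had 31 and 2. The summed Ugt level in liver was 4303 CPM, the summed Gst level 3736 CPM and the summed Sult level 1380 CPM. No count was found in any liver library of the cold experiment for 10 members, and 15 members had none in ileum.

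The leading genes differed by tissue. Liver was led by Ugt2b1 at 432 RPKM, a steroid and drug glucuronosyltransferase, by Ugt2b5 at 424 RPKM, Gstm1 at 405 RPKM, Gstp1 at 399 RPKM and Gsta3 at 377.0 RPKM, all as means at 22 °C in the cold experiment. The SDs of these 5 genes were 59.3, 11.0, 79.7, 20.3 and 40.6 RPKM over 3 libraries, so their order within liver was not separated by the spread. Among the Sult genes, Sult2a8, which sulfates bile acids in mouse liver, led at 306 ± 28.3 RPKM (SD, n = 3) and was at 0 in all 3 ileum libraries at 22 °C of the same experiment. Ileum was led by Ugt2b34 at 117 ± 5.41 RPKM and by the omega class gene Gsto1 at 115 ± 2.20 RPKM (SD, n = 3 each), followed by Sult1d1, a catecholamine sulfotransferase, at 77.4 ± 3.12 RPKM (SD, n = 3). Ugt2b34 was also abundant in liver, at 142 to 153 RPKM, whereas Ugt2b1 was at 0.0889 to 0.154 RPKM and Ugt2b5 at 5.62 to 6.44 RPKM in ileum.

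**Figure D1:**
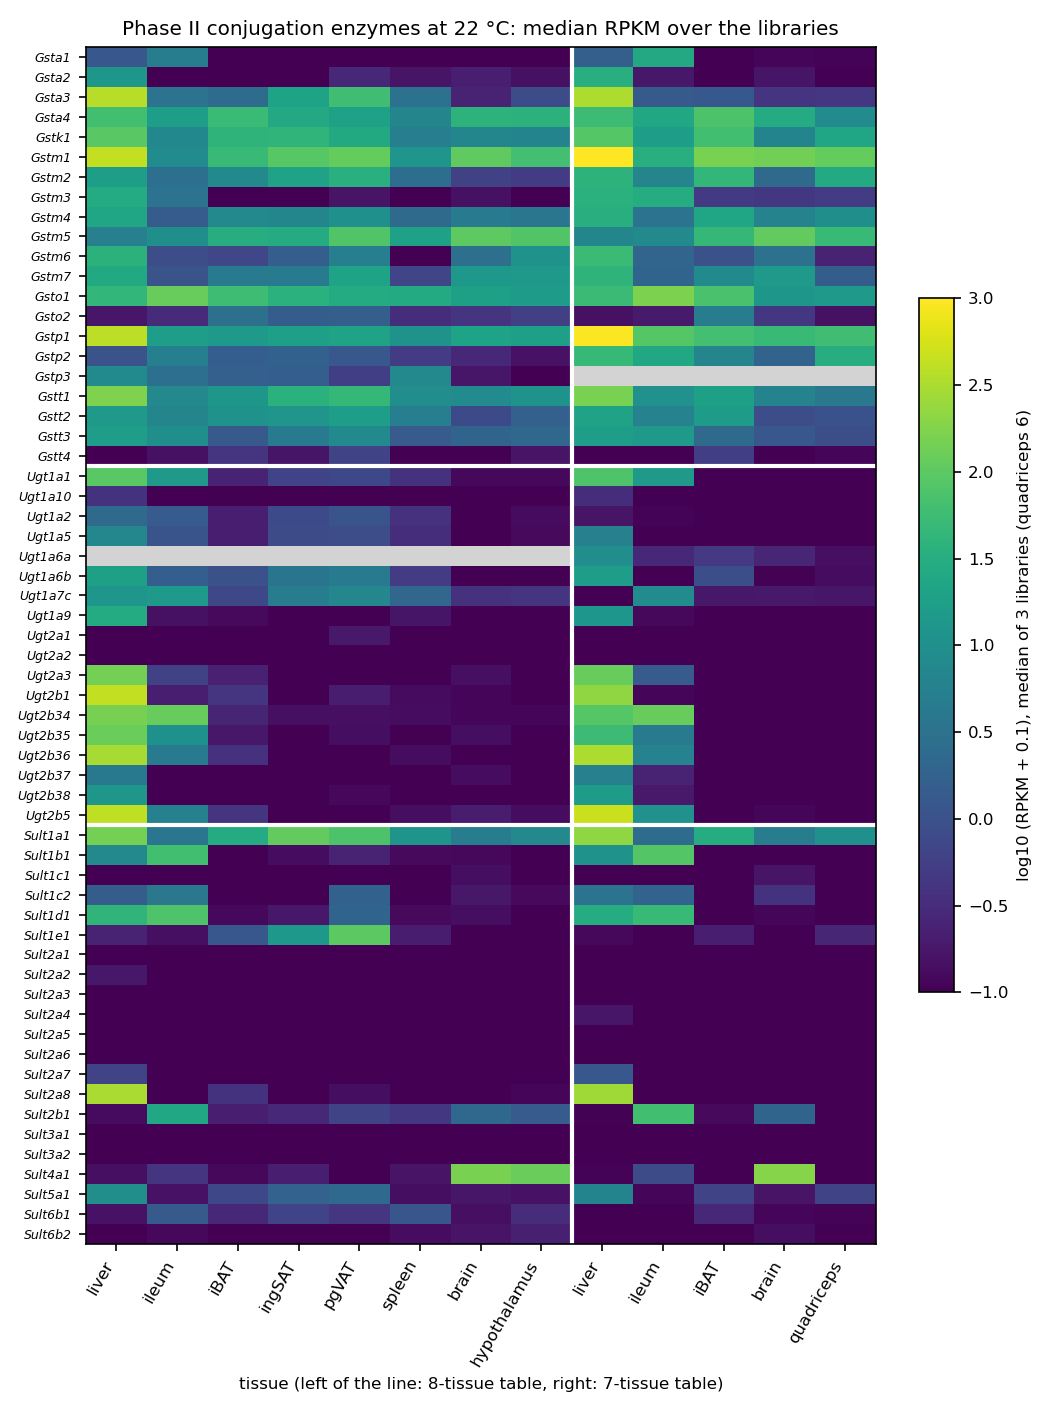
Median level at 22 °C of each of the 60 members in each tissue, in RPKM on a log10 scale after adding 0.1 (colour), with members in rows by family and tissues in columns. Left of the white line are tissues of the first table and right of it those of the second, each median is over 3 libraries (quadriceps 6), and grey marks a gene that the table did not hold. Ugt2b and Sult2a8 transcripts were high in liver, Sult1b1, Sult1d1 and Sult2b1 in ileum, Sult1e1 in white fat and Sult4a1 in brain and hypothalamus.

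Outside liver and ileum the Gst genes made up the largest share of the summed members at 22 °C. Gstm1 was the highest Gst gene in ingSAT at 74.3 to 108 RPKM and in pgVAT at 107 to 119 RPKM, and Gsto1 in iBAT of the cold experiment at 55.1 to 65.5 RPKM and in spleen at 21.2 to 27.6 RPKM. In hypothalamus Gstm5 was at 80.1 to 86.2 RPKM. Sult1e1, the estrogen sulfotransferase, was at 47.4 to 132 RPKM in pgVAT and 11.7 to 30.6 RPKM in ingSAT, and at most 0.388 RPKM in liver of the same experiment. Sult4a1, a sulfotransferase of neurons, was at 115 to 127 RPKM in hypothalamus and 93.5 to 163 RPKM in brain. Sult1a1 was the highest Sult gene in iBAT, ingSAT, spleen and quadriceps. Apart from the brain library with liver transcripts, glucuronosyltransferase levels were lower outside the 2 digestive organs. In the cold experiment the summed Ugt level was 45.7 CPM in pgVAT, 34.1 CPM in ingSAT, 11.9 CPM in spleen, 8.66 CPM in iBAT and 1.74 CPM in hypothalamus. These iBAT libraries also held 59.2 to 106 CPM of hepatocyte markers, and the part of liver transcripts in their Ugt level was not tested.

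In liver at 10 °C, Ugt2b37 and Sult5a1 fell and Sult1c2, a sulfotransferase of phenolic compounds, rose, while the abundant members stayed within the spread between libraries. Of 38 members tested, 1 was called higher and 2 lower, where 0.74% of the 12026 genes tested were called higher and 2.54% lower. With library size alone as the scaling, the same calls over all genes were 0.457% and 3.32%, and the 3 members remained called. None of the members had an adjusted p under 0.05 by edgeR's quasi-likelihood test, as was the case for 0% of all genes, although 8 members had an unadjusted p of at most 0.05, a share of 21.1% against 18.6% of all genes, and DESeq2 gave 2 members an adjusted p under 0.05. The median log2 fold change of the members was 0.05 and that of all genes 0.01, and 27 members lay within 0.25 of no change.

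Ugt2b37, a glucuronosyltransferase gene in the Ugt2b cluster (GRCm38 chr5:87240493-87254804, minus strand), stood at 5.18, 9.94 and 7.72 CPM at 22 °C and at 3.44, 3.79 and 3.80 CPM at 10 °C. The groups did not overlap, and the log2 fold change was -1.05 ± 0.23 (SE), with an unadjusted p of 0.00125 and an adjusted p of 0.0999. Sult5a1 (chr8:123140192-123158315, minus strand) was at 52.2, 28.2 and 41.3 CPM at 22 °C and at 23.5, 29.95 and 22.6 CPM at 10 °C. The highest cold library lay above the lowest control, and the log2 fold change was -0.68 ± 0.20 (SE), with an unadjusted p of 0.00827. Without replicate 1 at 22 °C the change was -0.46 and no longer passed the fold limit. Sult1c2 (chr17:53829637-53846339, minus strand) read 2.05, 2.59 and 3.09 CPM at 22 °C and 3.07, 5.34 and 4.54 CPM at 10 °C. These groups overlapped by 1 library, and the log2 fold change of 0.75 ± 0.25 (SE) had an unadjusted p of 0.0145. Without replicate 2 at 10 °C it was 0.57, with an unadjusted p of 0.0647.

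By family, the 18 Gst genes tested in cold liver had a median log2 fold change of 0.04, with 0 called by edgeR, the 14 Ugt genes a median of 0.06 with 1 called, and the 6 Sult genes a median of -0.02 with 2 called. The summed Gst level was 3737 ± 411 CPM at 22 °C and 3956 ± 216 CPM at 10 °C, and the summed Ugt level was 4303 ± 249 and 4305 ± 114 CPM (SD, n = 3 each). Sult2a8 was at 1004 ± 92.9 and 1044 ± 43.1 CPM and Sult1a1 at 205 ± 45.5 and 185.0 ± 35.8 CPM (SD, n = 3 each). Gsta3, an alpha class transferase, was at 1637 ± 176 CPM at 22 °C and 1777 ± 174 CPM at 10 °C (SD, n = 3 each). Ugt1a1, the bilirubin glucuronosyltransferase, was at 209.6 ± 34.7 and 242 ± 16.1 CPM (SD, n = 3 each), and its groups overlapped. Gstp3 and Sult1b1 did not overlap between groups and had unadjusted p-values of 0.00966 and 0.00802, but their log2 fold changes of 0.46 and 0.33 were below the fold limit. The summed hepatocyte markers went from 83060 to 91700 CPM at 22 °C to 110900 to 114200 CPM at 10 °C, with 0 of 10 markers called, and their part in the results was not tested.

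In liver at 34 °C, Gstm1 rose, Sult5a1 fell 2.84-fold, and 3 further members were called. Of 38 members tested, 3 were called higher and 2 lower, where 1.77% of the 11179 genes tested were called higher and 1.61% lower. One member in each direction had an adjusted p under 0.05, as did 0.385% of all genes. The median log2 fold change was 0.10 over the members and 0.01 over all genes. With library size alone as the scaling, 1 member was called higher and 2 lower, and 1.21% and 2.1% of all genes.

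Gstm1, the most abundant mu class transferase (chr3:108012255-108017973, minus strand), was at 1648, 1596 and 1482 CPM at 22 °C and at 2415, 2476 and 2363 CPM at 34 °C. Every warm library was above every control, with a log2 fold change of 0.62 ± 0.08 (SE) and an adjusted p of 0.0242 by edgeR. The fold was close to the limit of the call: it was 0.55 on the log2 scale with library size scaling and 0.58 without replicate 3 at 22 °C, both below the limit, with adjusted p-values of 0.0298 and 0.106. Sult5a1 was at 32.3, 27.6 and 27.2 CPM at 22 °C and at 12.2, 6.87 and 11.7 CPM at 34 °C. All warm libraries lay below all controls, with a log2 fold change of -1.50 ± 0.20 (SE) and an adjusted p of 0.0258 by edgeR.

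Sult1c2 was at 6.09, 6.51 and 4.32 CPM at 22 °C and at 10.7, 8.75 and 8.39 CPM at 34 °C, without overlap. Its log2 fold change was 0.72 ± 0.19 (SE) and its adjusted p was 0.197. Ugt2b38 (chr5:87409942-87424203, minus strand) was at 25.6, 28.9 and 38.5 CPM at 22 °C and at 20.2, 7.88 and 18.5 CPM at 34 °C. The groups did not overlap, and the log2 fold change was -1.002 ± 0.31 (SE) with an adjusted p of 0.266. Ugt1a5 was at 12.1, 16.7 and 8.87 CPM at 22 °C and at 13.3, 37.8 and 18.6 CPM at 34 °C, so that 1 warm library carried most of the difference. Its log2 fold change of 0.89 ± 0.37 (SE) became 0.35 without that library, replicate 2 at 34 °C, and its call was also lost with DESeq2. Without replicate 3 at 22 °C, 0 members were called higher by edgeR, and without replicate 1 at 22 °C there were 5.

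**Figure D2:**
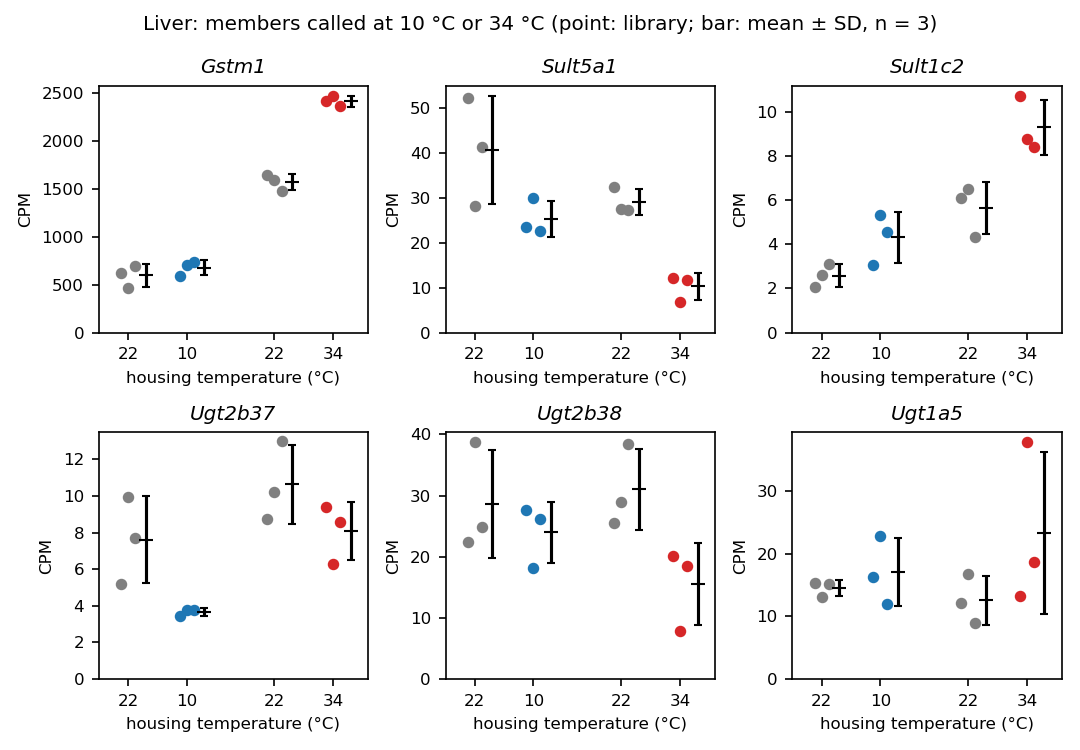
CPM in each liver library (points) of the 6 members called at 10 °C or 34 °C, with mean and SD over 3 libraries (black), the cold experiment on the left of each panel and the warm experiment on the right. Gstm1 separates at 34 °C and not at 10 °C, Sult5a1 and Sult1c2 shift the same way in both experiments, and levels are not comparable between the left and right of a panel because the tables were made separately.

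Most other abundant liver members changed little at 34 °C. Gstp1, the pi class transferase, was at 1613 ± 352 CPM at 22 °C and 1344 ± 368 CPM at 34 °C (SD, n = 3 each). Ugt2b5 was at 923 ± 54.4 and 895 ± 117 CPM, and Ugt2b36 at 662 ± 34.99 and 655 ± 45.6 CPM (SD, n = 3 each). Ugt2b1 was at 559 ± 12.5 and 443 ± 38.5 CPM (SD, n = 3 each), without overlap, with a log2 fold change of -0.33 that was below the fold limit. Sult1a1, the phenol sulfotransferase, had a log2 fold change of 0.58 ± 0.20 (SE), with 325, 338 and 210.1 CPM at 22 °C and 354, 431 and 523 CPM at 34 °C. It was just under the fold limit, and it was called when replicate 1 or 2 at 34 °C or replicate 1 or 2 at 22 °C was left out.

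Of 18 Gst genes tested at 34 °C 15 had a positive log2 fold change, as did 51.6% of all genes, with a median of 0.21, and the summed Gst level was 5766 ± 89.3 CPM at 22 °C and 6784 ± 141 CPM at 34 °C (SD, n = 3 each). Gstm1 made up most of this difference. The 13 Ugt genes had a median of 0.08 and a summed level of 3308 ± 185 and 3239 ± 189 CPM (SD, n = 3 each), and the 7 Sult genes a median of -0.06. Hepatocyte markers summed to 111500 to 123900 CPM at 22 °C and to 150200 to 160500 CPM at 34 °C, again with 0 of 10 markers called by edgeR, and their part in the result was not tested.

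Sult5a1 was lower and Sult1c2 higher in liver at both temperatures relative to the controls of each experiment. Of 35 members tested in both experiments, 13 had positive log2 fold changes in both, 5 negative in both and 17 opposite signs. The experiments share no libraries, and Pearson's r of the log2 fold changes across these members was 0.516, a description over genes that are not independent. Ugt2b37 was -1.05 at 10 °C and -0.40 at 34 °C, Ugt2b38 was -0.26 and -1.002, and Gstm1 was 0.19 and 0.62. The difference between the 2 exposures was not tested, since the supplier of the mice and the library kit differ between the experiments as well as the temperature.

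**Figure D3:**
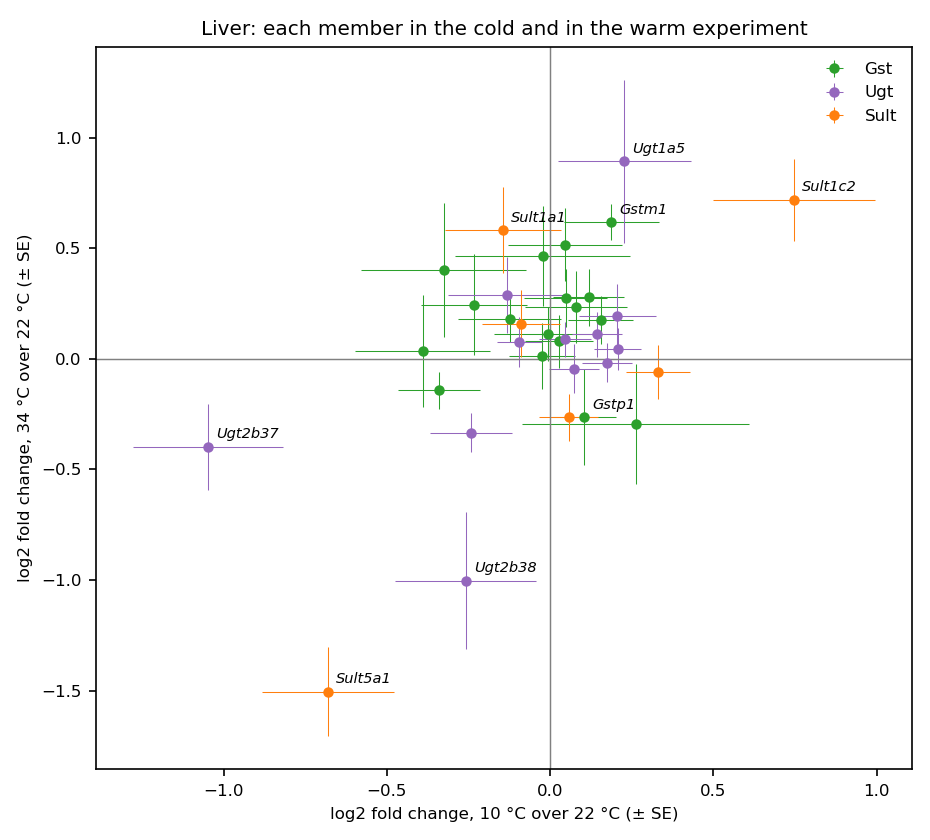
Log2 fold change in liver at 10 °C over 22 °C (x axis) against that at 34 °C over 22 °C (y axis) for the 35 members tested in both experiments, with SE as lines and families as colours. Most points lie near the origin, Sult1c2 is at the upper right (0.75 and 0.72), and Sult5a1 at the lower left (-0.68 and -1.50).

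Promoter windows are shown for Sult1c2 and Sult5a1, the members called in the same direction in liver at both temperatures, and for Gstm1, the most abundant member called in liver. They are RefSeq windows on GRCm38.p6 from 250 bases before to 50 bases after the annotated start, read on the coding strand, which is the minus strand for all 3. Capitals mark the core of the aryl hydrocarbon receptor site, GCGTG. The search also covered the antioxidant response element, TGACNNNGC,, and both motifs were searched on both strands. The windows lie at chr3:108017769-108018068, chr17:53845909-53846208 and chr8:123158231-123158530.
Gstm1: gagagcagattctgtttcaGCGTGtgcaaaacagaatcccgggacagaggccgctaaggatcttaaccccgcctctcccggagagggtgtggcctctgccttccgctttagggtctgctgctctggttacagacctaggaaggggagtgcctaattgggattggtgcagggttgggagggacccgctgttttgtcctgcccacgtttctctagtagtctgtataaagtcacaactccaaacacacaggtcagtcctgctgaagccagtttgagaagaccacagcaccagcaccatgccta
Sult1c2: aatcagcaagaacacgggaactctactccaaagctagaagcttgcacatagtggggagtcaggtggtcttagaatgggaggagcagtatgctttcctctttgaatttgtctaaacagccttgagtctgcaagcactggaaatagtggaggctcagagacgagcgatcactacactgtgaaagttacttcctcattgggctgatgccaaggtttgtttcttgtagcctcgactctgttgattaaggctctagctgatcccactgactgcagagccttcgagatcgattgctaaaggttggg
Sult5a1: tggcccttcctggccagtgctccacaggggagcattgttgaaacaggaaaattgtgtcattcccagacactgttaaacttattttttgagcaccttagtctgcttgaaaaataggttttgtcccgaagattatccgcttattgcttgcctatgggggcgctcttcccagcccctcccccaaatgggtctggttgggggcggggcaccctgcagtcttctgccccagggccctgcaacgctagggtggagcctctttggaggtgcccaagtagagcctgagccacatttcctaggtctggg
Gstm1 has the core once, on the coding strand, and neither motif was found in the other 2 windows. Of the other members called in liver, Ugt1a5 held GCGTG once in its window, and Ugt2b37 and Ugt2b38 held neither motif. A window was available for 53 members. Of these 10 (18.9%) held GCGTG, against 35.2% of 27025 genes, and 3 (5.66%), namely Gsta3, Gstm5 and Gstm7, held TGACNNNGC, against 14% of all genes. Gstm5 alone held both, and there the matches overlapped. A match is a run of letters and not a bound site.

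In ileum at 10 °C, Gstm3 was the only member called, and it fell. Of 35 members tested 0 were called higher and 1 lower, where 1.44% of the 14081 genes tested were called higher and 1.26% lower, and 1.13% and 1.79% with library size scaling. No member had an adjusted p under 0.05 by edgeR, against 0.0639% of all genes, while 4 members (11.4%) and 17.1% of all genes had an unadjusted p of at most 0.05 and DESeq2 adjusted 1 member below 0.05. Gstm3 (chr3:107963696-107969283), a mu class transferase, was at 4.20, 7.66 and 3.35 CPM at 22 °C and at 3.03, 3.02 and 1.76 CPM at 10 °C. The groups did not overlap, with a log2 fold change of -0.95 ± 0.36 (SE) and an adjusted p of 0.25. Without replicate 2 at 22 °C it was -0.53 and was not called, and without replicate 3 at 10 °C it was -0.74 with an unadjusted p of 0.092.

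The abundant ileal enzymes shifted by less than the fold limit in the cold. Sult1d1 was at 191, 182 and 198 CPM at 22 °C and at 219, 223 and 266 CPM at 10 °C. It did not overlap, and its log2 fold change was 0.31 ± 0.09 (SE) with an adjusted p of 0.169. Ugt2b34 was at 504 ± 23.4 and 557 ± 29.3 CPM, Gsto1 at 233 ± 4.44 and 245 ± 28.2 CPM and Sult1b1, a thyroid hormone sulfotransferase, at 180.1 ± 16.5 and 199 ± 12.8 CPM (SD, n = 3 each). The summed Ugt level was 658 ± 21.9 CPM at 22 °C and 709.8 ± 14.1 CPM at 10 °C and the summed Sult level 487 ± 37.2 and 566 ± 26.8 CPM (SD, n = 3 each). The summed enterocyte markers went from 11230 to 12840 CPM at 22 °C to 17880 to 20040 CPM at 10 °C, with 4 of 10 called higher, and B and plasma cell markers from 5982 to 6715 to 4287 to 5438 CPM, with 0 of 8 called by edgeR. Their part in these values was not tested.

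In ileum at 34 °C, Ugt2a3, Gstm6 and Gstm7 were called higher, and 29 of the 30 members tested had a positive log2 fold change, as did 52.7% of all genes. The call rule gave 3 members higher and 0 lower, where 1.57% of the 13023 genes tested were called higher and 1.26% lower. No member, and 0% of all genes, had an adjusted p under 0.05 by edgeR, although 10 members (33.3%) and 7.76% of all genes had an unadjusted p of at most 0.05, and DESeq2 also gave 0 members below 0.05. The median log2 fold change was 0.38 over the members and 0.01 over all genes. The median was 0.41 for the 17 Gst genes, 0.36 for the 7 Ugt genes and 0.24 for the 6 Sult genes.

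The differences in these 3 genes were largest in 1 library. Ugt2a3, a glucuronosyltransferase gene (chr5:87324972-87337195), was at 2.85, 2.80 and 1.43 CPM at 22 °C and at 2.04, 100.1 and 9.64 CPM in replicates 1, 2 and 3 at 34 °C. Replicate 1 overlapped the controls, and the log2 fold change was 3.98 ± 1.35 (SE). Gstm6 was at 4.02, 3.81 and 2.73 CPM at 22 °C and at 4.13, 19.8 and 7.21 CPM at 34 °C, and Gstm7 at 2.90, 2.99 and 1.53 and at 3.86, 11.0 and 3.36 CPM. Replicate 2 at 34 °C was the highest library for all 3 genes and is the one rich in Lct and poor in Slc10a2. Without it the log2 fold changes were 1.31, 0.69 and 0.55, none of the 3 was called, and the only member called was Gsta4. The 3 calls were also lost, at log2 fold changes of 1.04 to 4.13, when replicate 1, 2 or 3 at 22 °C was left out.

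The 3 libraries at 34 °C differed in their members. Relative to the mean at 22 °C, the median member was 0.57 higher on the log2 scale in replicate 2, 0.43 higher in replicate 3 and 0.07 higher in replicate 1, against -0.16, 0.05 and 0.12 in the controls. In replicate 3, 26 of 30 members exceeded the highest control, in replicate 2 there were 24 and in replicate 1 there were 11, where 29.4%, 35% and 23.1% of all genes tested exceeded it. The summed members took 3023 CPM in replicate 2, 2698 CPM in replicate 3 and 2016 CPM in replicate 1, against 1857 to 2164 CPM at 22 °C. With replicate 1 left out, 11 of 30 members were called higher, and so were 3.36% of all genes. The enterocyte markers summed to 17940 to 25230 CPM at 22 °C and 19550 to 33570 CPM at 34 °C with 3 of 10 called higher, and their part in the result was not tested.

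**Figure D4:**
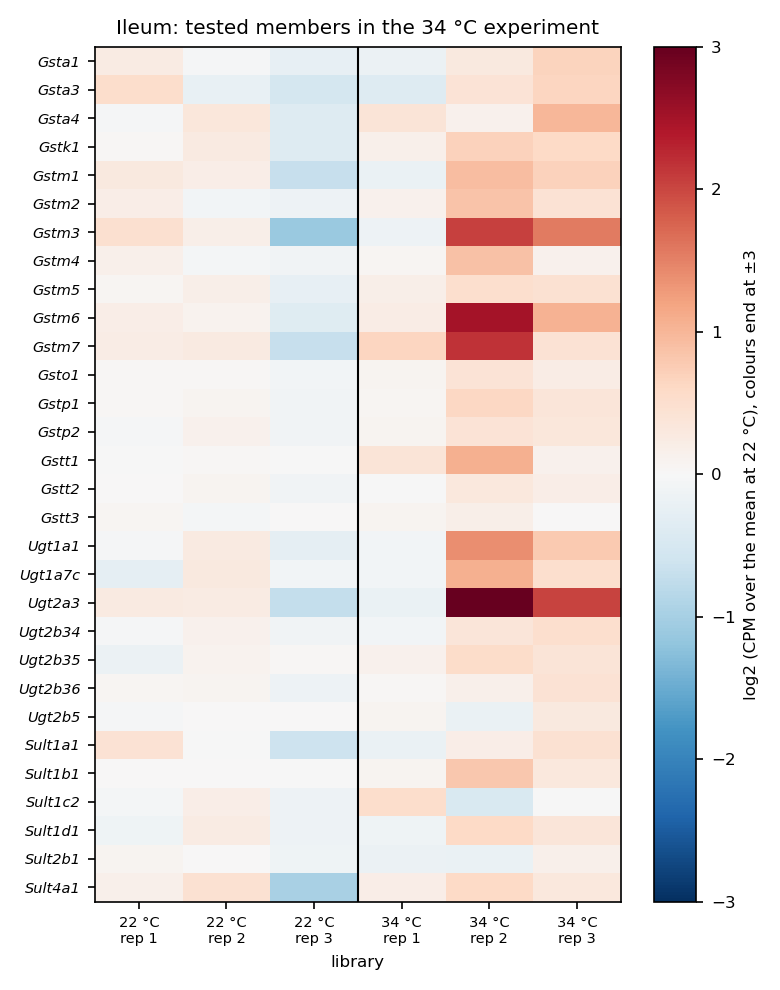
Log2 of CPM over the mean at 22 °C (colour, ending at ±3) for the 30 members tested in ileum of the warm experiment, with members in rows and the 3 libraries at 22 °C (left of the black line) and 3 at 34 °C (right) in columns. Replicates 2 and 3 at 34 °C are mostly red, with medians of 0.57 and 0.43, replicate 1 at 34 °C is near white, and replicate 3 at 22 °C is mostly blue, with a median of -0.16.

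A test of the difference between liver and ileum was run as an interaction over the 12 libraries of each experiment. At 10 °C, 0 of 41 members and 0.05% of 14012 genes had an adjusted interaction p under 0.05 by edgeR, and 4 members and 12% of all genes had an unadjusted p of at most 0.05. The smallest was that of Gstp3, a pi class gene with log2 fold changes of 0.46 in liver and -0.38 in ileum and an adjusted interaction p of 0.232. At 34 °C, 0 of 40 members and 0.0153% of 13087 genes passed, 4 members and 9.33% of all genes had an unadjusted p of at most 0.05 and the smallest adjusted p was 0.398. No other tool was run for this interaction.

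Genes that feed, regulate and follow conjugation were also examined in these 2 organs. Of all genes tested in liver, 0.74% were called higher and 2.54% lower at 10 °C, and 1.77% and 1.61% at 34 °C. An adjusted p under 0.05 by edgeR was found for 0% of them at 10 °C and 0.385% at 34 °C. At 10 °C in liver, 0 of 16 xenobiotic regulators, 0 of 11 NRF2 targets outside the families and 0 of 17 genes of glutathione supply were called by edgeR. The same held for 0 of 10 genes of PAPS supply and 0 of 20 other conjugation enzymes. Slc35d1, which carries UDP-glucuronic acid into the endoplasmic reticulum, fell by 0.88 on the log2 scale as 1 of 9 genes of its supply. Arsb, a lysosomal sulfatase, fell by 0.63 as 1 of 7 deconjugation enzymes, and Slc22a7, an organic anion transporter, fell by 0.97 as 1 of 16 transporters. At 34 °C in liver, Slc22a7 was at 62.5 ± 6.67 CPM at 22 °C and 15.8 ± 1.71 CPM at 34 °C (SD, n = 3 each), a log2 fold change of -1.98 ± 0.12 (SE) with an adjusted p of 6.6e-04 by edgeR. Mgst3, a microsomal glutathione transferase, was 9.36 ± 1.41 and 18.7 ± 1.70 CPM (SD, n = 3 each), with a log2 fold change of 0.999 and an adjusted p of 0.0284 by edgeR. Nqo1, an NRF2 target, was called higher at 0.67 as 1 of 11 on its list, and 0 of 16 regulators and 0 of 16 genes of glutathione supply were called. The remaining calls, as log2 fold changes, were Inmt (0.60) among 19 other conjugation enzymes, Ces1d (0.75) among 7 deconjugation enzymes and Slco1a4 (0.76) among 15 transporters. Slc35b1 (-0.65) was called among 8 genes on the list of UDP-glucuronic acid supply, and Sulf1 (-0.66) among 10 on that of PAPS supply. A place on these lists does not show that the gene supplies the donor.

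In ileum at 10 °C, 4 genes of these lists were called, where 1.44% of all genes tested were called higher and 1.26% lower. Me1, malic enzyme, was 1 of 12 NRF2 targets with a log2 fold change of 0.98. Ces1d, a carboxylesterase, was 1 of 7 deconjugation enzymes with 0.97, and Abcc3, an exporter of glucuronides, 1 of 11 transporters with -0.63. Ephx2, soluble epoxide hydrolase, was 1 of 16 on the list of other conjugation enzymes with 0.91, although a hydrolase does not itself conjugate. The lists of regulators, glutathione supply, UDP-glucuronic acid supply and PAPS supply held 0 calls of 14, 18, 8 and 10 genes tested. At 34 °C Nr1i3, which encodes CAR, had a log2 fold change of 3.23 and stood at 1.95, 2.54 and 1.57 CPM at 22 °C and 3.91, 45.1 and 7.78 CPM at 34 °C. It was called as 1 of 16 regulators, and its highest value was in replicate 2, the library that also carried Ugt2a3. Ephx2 was called higher at 1.37, as 1 of 15 on the list of other conjugation enzymes. Hk2, a hexokinase, was called lower at -0.99, as 1 of 8 genes of UDP-glucuronic acid supply. The other lists held 0 calls, where 1.57% of all genes tested in ileum at 34 °C were called higher and 1.26% lower. No gene of these lists had an adjusted p under 0.05 by edgeR in ileum at either temperature.

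In iBAT, the brown fat depot that produces heat, members of the Gst and Sult families were called at both temperatures. At 10 °C, 2 of 21 members tested were called higher and 2 lower, where 6% and 7.24% of the 12791 genes tested were called, and 1 higher and 3 lower had an adjusted p under 0.05 against 11.3% of all genes. Gstt2, a theta class transferase, was at 40.3, 45.5 and 44.8 CPM at 22 °C and at 27.3, 18.2 and 26.8 CPM at 10 °C, without overlap, with a log2 fold change of -0.85 ± 0.16 (SE) and an adjusted p of 0.012. Its neighbour Gstt1 was at 13.2, 21.9 and 20.2 CPM and at 10.6, 9.25 and 10.2 CPM, without overlap, with -0.88 ± 0.19 (SE) and an adjusted p of 0.0211. Gstm4 rose from 11.0, 13.03 and 13.5 CPM to 17.2, 18.8 and 20.6 CPM, with 0.59 ± 0.14 (SE) and an adjusted p of 0.0267. This value was near the fold limit and was under it without replicate 3 at 10 °C or replicate 1 at 22 °C. Sult5a1 was at 3.12, 2.85 and 2.59 CPM at 22 °C and at 5.44, 12.8 and 4.33 CPM at 10 °C, with a log2 fold change of 1.40 ± 0.39 (SE) and an adjusted p of 0.05003.

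At 34 °C in iBAT, 6 of 20 members tested were called higher and 1 lower, where 12.2% and 7.19% of the 12331 genes tested were called, and 6 higher and 2 lower had an adjusted p under 0.05 against 28.9% of all genes. Sult1a1 was at 45.1, 44.8 and 60.1 CPM at 22 °C and at 111, 125 and 139 CPM at 34 °C, 2.49-fold higher without overlap, with a log2 fold change of 1.32 ± 0.15 (SE) and an adjusted p of 0.00192. Gsta4, the alpha class transferase that conjugates the lipid peroxidation product hydroxynonenal, was at 98.4, 96.8 and 96.4 CPM at 22 °C and at 57.4, 60.4 and 65.0 CPM at 34 °C. The groups did not overlap, and the log2 fold change was -0.67 ± 0.08 (SE) with an adjusted p of 0.00221. Gstt3 rose from 10.3, 8.86 and 9.04 CPM to 19.04, 15.4 and 15.6 CPM (0.83 on the log2 scale) and Gstm2 from 67.7, 79.9 and 75.5 CPM to 118, 146 and 119 CPM (0.78). Gstm6, Ugt1a6a and Ugt1a6b, the last 2 of them sharing exons, were also called higher at 0.996, 1.144 and 0.999 on the log2 scale, from mean levels at 22 °C of 0.929, 0.310 and 0.769 RPKM. The called genes and those with an adjusted p under 0.05 were not the same. Ugt1a6b was called with an adjusted p of 0.0815 by edgeR. Gstt1 (0.56) and Gstm4 (-0.31) had adjusted p-values of 0.0383 and 0.0264 by edgeR, but their folds were below the limit of the call.

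Genes of the surrounding pathway were called in both iBAT experiments. Of 11 NRF2 targets tested, 8 were called higher at 10 °C and 0 lower, where 6% and 7.24% of all genes tested were called. All 8 had an adjusted p under 0.05 by edgeR, as did 11.3% of all genes in either direction. At 34 °C 6 of 11 were called lower and 0 higher, where 7.19% and 12.2% of all genes tested were called. The largest log2 fold changes were those of Me1, malic enzyme, at 2.09 and -2.10, and of Pgd, of the pentose phosphate pathway, at 1.72 and -1.72. G6pdx, Tkt and Taldo1 of the same pathway were at 1.20, 1.02 and 0.88 in the cold and at -1.24, -1.19 and -1.16 in the warmth. These 5 genes supply NADPH and pentoses and serve fatty acid synthesis as well as glutathione reduction. Hmox1 and Gclm, which make heme oxygenase and a subunit of the rate-limiting enzyme of glutathione synthesis, were called at 10 °C, at 0.81 and 0.78, and not at 34 °C. Of 10 efflux transporters tested 0 were called at 10 °C by edgeR, and of 7 tested at 34 °C 2 were called higher, Abcc3 at 1.16 and Abcg2 at 0.79. In ingSAT at 10 °C, 4 of 12 NRF2 targets were called higher and 2 lower, where 7.2% and 9.14% of all genes tested were called. Those called lower were Nqo1 at -0.79 and Hmox1 at -1.09. None of the 12 had an adjusted p under 0.05 by edgeR.

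Several members had opposite signs in the 2 iBAT experiments. Sult1a1 was -0.49 at 10 °C, where its adjusted p was 0.0428 but its fold was below the limit, and 1.32 at 34 °C. Gsta4 was 0.32 at 10 °C and -0.67 at 34 °C, and Gstm2 was -0.42 and 0.78. Neither was called at 10 °C, with adjusted p-values of 0.0857 and 0.0872 by edgeR. Of the members called at 10 °C, Gstt1 and Gstm4 had the opposite sign at 34 °C, at 0.56 and -0.31. Sult5a1 and Gstt2 kept their sign, at 0.37 and -0.17. None of Gstt1, Gstm4, Sult5a1 and Gstt2 was called at 34 °C. Gstt1 and Gstm4 did not overlap there and had adjusted p-values of 0.0383 and 0.0264 by edgeR, with folds below the limit. Those of Sult5a1 and Gstt2 were 0.285 and 0.268. The difference between exposures was not tested, for the same reason as in liver. Brown adipocyte markers went from 11770 to 15470 CPM at 22 °C to 6497 to 7850 CPM at 34 °C, and from 8654 to 13810 CPM to 14930 to 18890 CPM at 10 °C. Skeletal muscle markers ranged from 4.12 to 6666 CPM at 22 °C and from 1479 to 5322 CPM at 34 °C, and were 7156 to 10460 CPM at 22 °C and 2865 to 5858 CPM at 10 °C. Hepatocyte markers in the cold experiment were 59.2 to 106 CPM at 22 °C and 3.18 to 3.86 CPM at 10 °C, and epididymis markers 0.459 to 0.615 and 5.17 to 53.4 CPM. The part of these markers in the results was not tested.

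**Figure D5:**
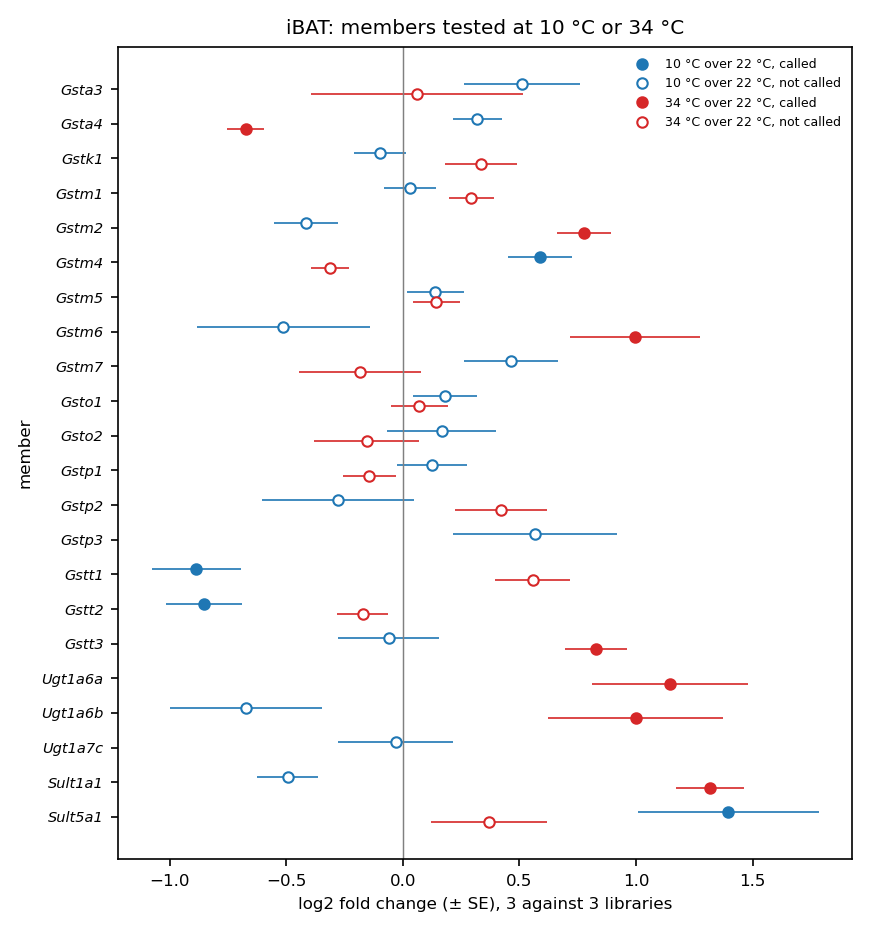
Log2 fold change in iBAT at 10 °C over 22 °C (blue) and at 34 °C over 22 °C (red) for each member tested, with SE as lines and 3 against 3 libraries in each, and filled points for called members. Sult1a1, Gsta4 and Gstm2 lie on opposite sides of 0 in the 2 experiments, with -0.49 and 1.32, 0.32 and -0.67, and -0.42 and 0.78. They were called at 34 °C and not at 10 °C.

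In ingSAT at 10 °C, 2 of 28 members tested were called higher and 5 lower, where 7.2% and 9.14% of the 13982 genes tested were called, and 0 higher and 2 lower had an adjusted p under 0.05 by edgeR against 7.51% of all genes. At an unadjusted p of at most 0.05 there were 10 members (35.7%), against 28% of all genes. Gstt3 was at 16.7, 22.5 and 15.1 CPM at 22 °C and at 9.78, 5.83 and 7.03 CPM at 10 °C, without overlap, with a log2 fold change of -1.26 ± 0.25 (SE) and an adjusted p of 0.0337. Gstm1, the leading Gst of this depot, fell from 109, 159 and 133 CPM to 93.6, 65.5 and 73.2 CPM, by 0.79 on the log2 scale, and Gstm2 by 0.71. The adjusted p-values of Gstm1 and Gstm2 were 0.0527 and 0.0573 by edgeR. Sult1a1 was at 149.5, 162.6 and 186.3 CPM at 22 °C and at 119.3, 106 and 112.9 CPM at 10 °C, without overlap. Its log2 fold change of -0.56 had an adjusted p of 0.0431 by edgeR but was below the fold limit. Ugt1a6b and Ugt1a7c, which share exons, fell by 0.81 and 0.61 and their groups overlapped. Gstm5 rose by 0.59 on the log2 scale, from 25.3, 36.2 and 37.7 CPM to 53.7, 45.3 and 51.1 CPM. Sult2b1, a cholesterol sulfotransferase, was near the detection limit at 0.0956, 1.06 and 0.726 CPM at 22 °C and was at 3.56, 2.81 and 1.92 CPM at 10 °C, with 2.07 ± 0.65 (SE). Brown adipocyte markers rose from 192.7 to 286.9 CPM to 2544 to 3181 CPM in the same libraries, with 8 of 8 called higher, and their part in the result was not tested. Without replicate 2 at 10 °C, 4 members were called.

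In pgVAT at 10 °C, 1 of 28 members tested was called higher and 0 lower, where 4.46% and 3.47% of the 14856 genes tested were called, and no member and 0% of all genes had an adjusted p under 0.05 by edgeR. The exact test of edgeR also left 0 members under it, and 1 member (3.57%) had an unadjusted p of at most 0.05 in the quasi-likelihood test, against 8.12% of all genes. The member called was Sult5a1, at 10.9, 6.93 and 9.99 CPM at 22 °C and at 32.99, 7.95 and 40.3 CPM in replicates 1, 2 and 3 at 10 °C. The groups overlapped, and its log2 fold change was 1.54 ± 0.57 (SE). Gstm7 was at 22.4, 48.5 and 32.8 CPM at 22 °C and at 155, 7.25 and 392 CPM at 10 °C, and was not called. Both genes were high in the 2 cold libraries with 28770 and 32240 CPM of epididymis markers and low in the one with 5.84 CPM. The number of calls was 0 without replicate 1 or replicate 3 at 10 °C or replicate 1 at 22 °C, and 10 without replicate 2 at 10 °C. Among these fits with 1 library left out, Sult5a1 was called in the one without replicate 2 at 10 °C and in none of the other 5. Sult1e1, the leading Sult of this depot, was at 115 ± 53.2 CPM at 22 °C and 58.9 ± 20.04 CPM at 10 °C (SD, n = 3 each) and did not pass the test.

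In spleen at 10 °C, 1 of 19 members tested was called higher and 1 lower, where 0.638% and 2.04% of the 14117 genes tested were called. None had an adjusted p under 0.05 by edgeR, against 0.0779% of all genes, while 4 members (21.1%) and 10% of all genes had an unadjusted p of at most 0.05 and edgeR's exact test also adjusted 0 below 0.05. Sult2b1 was at 1.38, 1.16 and 1.80 CPM at 22 °C and at 2.54, 2.72 and 2.14 CPM at 10 °C, without overlap, with a log2 fold change of 0.78 ± 0.25 (SE). Gstm5 was at 14.7, 25.1 and 38.5 CPM at 22 °C and at 11.8, 15.6 and 16.7 CPM at 10 °C, with overlap and a log2 fold change of -0.83 ± 0.31 (SE). Neither call remained without replicate 2 at 10 °C, where the log2 fold changes were 0.70 and -0.88 with unadjusted p-values of 0.0502 and 0.0519, and Gstm5 was also lost without replicate 1 at 10 °C or without replicates 2 or 3 at 22 °C, each left out alone. Pancreas acinar markers ranged from 17.2 to 2183 CPM at 22 °C and from 16.5 to 4458 CPM at 10 °C, and their part was not tested.

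In brain at 10 °C, 0 of 35 members tested were called higher and 10 lower by edgeR, where 0.27% and 2.45% of the 14423 genes tested were called, and no member and 0% of all genes had an adjusted p under 0.05. The exact test of edgeR called 23 members lower and likewise adjusted 0 below 0.05. All 10 calls came with the 22 °C library that held liver transcripts, and 0 were made when any 1 of the 10 °C libraries was left out, against 25 and 23 without replicates 1 and 3 at 22 °C. Ugt2b5 was at 708.2 CPM in that library and at 0.0 to 0.287 CPM in the other 5, and Gsta3 was at 1586 CPM in it and at 0.536 to 1.03 CPM in the others. Without this library, 2 against 3 libraries remained, 17 members were tested and 1 was called (Gstm2), 2 had an unadjusted p of at most 0.05, the median log2 fold change of the members was -0.07 and 0.801% of 13976 genes were called.

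The other brain and muscle comparisons gave few calls. In hypothalamus at 10 °C, 0 of 19 members were called higher and 0 lower by edgeR, where 0.399% and 0.179% of the 14526 genes tested were called. Adjusted p-values under 0.05 were found for 0% of all genes, and 1 member, Gsta4, had an unadjusted p of at most 0.05, as did 6.18% of all genes, with a log2 fold change of -0.20, while edgeR's exact test also called 0. Without replicate 1 at 22 °C, Ugt1a7c was called. Sult4a1 was at 305 ± 15.7 CPM at 22 °C and 301 ± 27.6 CPM at 10 °C (SD, n = 3 each). In brain at 34 °C, 0 of 18 members were called higher and 0 lower, where 0.0429% and 0.15% of the 13978 genes tested were called, 0% of all genes had an adjusted p under 0.05, and 0 members had an unadjusted p of at most 0.05 by edgeR or were called by its exact test. The log2 fold changes of the members lay between -0.18 and 0.16, and Sult4a1 was at 472 ± 12.7 and 457 ± 34.7 CPM (SD, n = 3 each).

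In quadriceps at 10 °C, 2 of 16 members tested were called higher and 0 lower, where 2.7% and 0.642% of the 11836 genes tested were called, and no member had an adjusted p under 0.05 by edgeR against 0.338% of all genes. The unadjusted p was at most 0.05 for 4 members (25%) and 12.1% of all genes, and edgeR's exact test adjusted 1 below 0.05. Gsta3 was at 0.178 to 1.80 CPM in the 6 libraries at 22 °C, with a median level of 0.334 RPKM, and at 8.73, 7.43 and 2.70 CPM at 10 °C. It did not overlap, and its log2 fold change was 2.45 ± 0.62 (SE) with an adjusted p of 0.13. Gstm7 was at 1.29 to 2.85 CPM at 22 °C and at 15.4, 2.69 and 2.29 CPM at 10 °C, so that replicate 1, the library with 201.9 CPM of epididymis markers, held the whole difference. Without that library its log2 fold change was 0.22 and it was not called. With only the 3 controls of the same column prefix as the cold libraries it was 1.58 with an unadjusted p of 0.0549, and Gsta3 remained called. In quadriceps at 34 °C, which used the same 22 °C libraries, 0 of 16 members were called higher and 0 lower by edgeR or by its exact test, where 0.409% and 0.836% of the 11725 genes tested were called, 0% of all genes had an adjusted p under 0.05 and 0 members had an unadjusted p of at most 0.05. Without replicate 2 at 34 °C, Sult1a1 was called.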

How the data were processed

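RNA-seq libraries of 9 tissues were used, 48 of the cold experiment and 36 of the warm experiment and quadriceps, while bone marrow and spinal cord were not used here. The authors aligned reads to the mouse genome (mm10) and deposited raw counts per gene, and the submitters' processing notes name STAR 2.5.3a, Picard 1.141 and HTSeq 0.6p1. Rows were matched to GENCODE M21 symbols (21583 of 21647 and 22997 of 23393 rows, 1246 through an older symbol).

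Each comparison was fitted with edgeR 4.0.16 in R 4.3.3 (TMM factors, quasi-likelihood test) on genes with an average log2 CPM above 0, using the libraries of that tissue and experiment alone, and the script was tested on simulated data. The limits of the call (p at most 0.05, fold above 1.5) follow the study's methods. Liver and ileum were compared by an interaction term. Named members were all called ones in liver and ileum, in other tissues up to 3 in each direction by fold, and the highest of each family at 22 °C; further members and the Gstm1 promoter were picked after their values were seen. Members, marker lists and pathway lists were chosen with earlier results of these data known. Alternatives were edgeR's exact test, DESeq2 1.42.0, library size scaling, other filters, an adjusted p limit, a replicate block, leaving out each library, and, chosen after seeing the data, quadriceps controls of the same column prefix only.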

Additional observations from a re-analysis of the deposited data

Results flagged for a closer look

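Sult1a1 was at 22.42 CPM in 1 of the 6 quadriceps libraries at 22 °C, replicate 1 of the libraries with the prefix QC, and at 13.06 to 15.65 CPM in the other 5. Its gap to the nearest library was 0.723 of the whole range of the group, which put it beyond Dixon's limit for a group of 6. Of the 5 members checked in this group it was the only one beyond the limit, and chance alone puts a share of 0.05 of such groups beyond it. Sult1a1 was called in neither quadriceps comparison.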

How the results depend on the processing

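With an adjusted p under 0.05 as the limit, the calls were 0 higher and 0 lower in liver at 10 °C, 0 lower in ileum at 10 °C, 1 higher and 1 lower in liver at 34 °C, 0 higher in ileum at 34 °C, 2 in ingSAT, and 0 in pgVAT, spleen, brain and quadriceps at 10 °C. The exact test called 5 higher in ileum at 34 °C, 4 in pgVAT and 23 in brain at 10 °C. Library size scaling called 1 higher in liver and 5 higher in ileum at 34 °C, and the lowest filter 5 higher in that ileum. Controls of the same prefix left 1 call in quadriceps at 10 °C. When single libraries were omitted, the calls were 0 to 2 higher and 1 to 3 lower in liver at 10 °C, 0 to 1 higher and 0 to 1 lower in ileum at 10 °C, 0 to 5 higher in liver at 34 °C, 0 to 11 higher in ileum at 34 °C, 3 to 7 calls in iBAT at 10 °C, 4 to 8 in ingSAT, 0 to 10 in pgVAT, 0 to 3 in spleen, 0 to 25 in brain and 0 to 1 in hypothalamus at 10 °C, 1 to 2 in quadriceps at 10 °C and 0 to 1 at 34 °C. The cause of these shifts was not tested.

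With the replicate block, 3 members were called in pgVAT, and in the other 7 tissues of the cold experiment the counts stayed within 1.5 times. Whether the replicate numbers pair the samples was checked by correlating the deviations of same-numbered libraries from their group means. Over 24 correlations in 8 tissues, r ran from -0.689 to 0.429 and in 0 tissues was every pair above 0.1. Libraries with different numbers were not compared, so this check cannot exclude pairing. The sample labels give no replicate numbers for the warm experiment. Its numbers used here are those of the column names, which do not say which sample a column holds, and no block was fitted there. Over all alternatives, 716 fold changes of named members stayed on their side of the threshold, 67 lost and 24 gained the call. The 716 can include sign changes smaller than the SE in members called in neither fit. A further 3 values, also called in neither fit, changed sign by at least the SE. Where either fit called the member, 0 changed sign. Members with an average log2 CPM of 0 or less were left out by the filter and not tested.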
